A study of Mus musculus with 16 samples.

Results

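The 4 genes described are the antioxidant genes Sod1 and Txn1 and the phagocyte oxidase genes Cybb and Ncf4, 4 of the 760 genes of a liver panel. They were selected on their difference between EVT0185-treated and vehicle-treated mice, Sod1 and Txn1 for a higher and Cybb and Ncf4 for a lower level after EVT0185, so their levels and differences are given as a description with no test. All 4 had a mean normalized value over the floor of 20 used for testing, as did 612 of the 760 genes.

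Livers came from 16 male C57BL/6J mice housed at 29 °C (thermoneutrality). All of them ate a diet containing 0.02% cholesterol, with 20 kcal% from fructose and 40 kcal% from fat that was mostly palm oil, as a mouse model of MASH (metabolic dysfunction-associated steatohepatitis, in which a fatty liver becomes inflamed and fibrotic). By gavage, 8 mice received EVT0185 at 100 mg/kg, and 8 received the vehicle alone, made of CMC at 1.5% with Tween-20 at 0.2%, so no group without the diet stands beside them. How old the mice were and how long they were dosed is not stated in the labels. The series title names EVT0185 as a compound that inhibits acetyl-CoA metabolic enzymes, and the groups are set side by side to see how treated livers differ in their transcripts.

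Superoxide is a reactive form of oxygen made on purpose by phagocytes and as a by-product of respiration in most cells. The phagocyte NADPH oxidase makes it from a membrane core, whose catalytic subunit gp91phox (NOX2) is encoded by Cybb, and cytosolic subunits that join the core on activation, among them p40phox, encoded by Ncf4. Sod1 encodes the cytosolic copper and zinc superoxide dismutase, which turns superoxide into hydrogen peroxide and oxygen, and Txn1 encodes thioredoxin, which reduces protein disulfides and serves the peroxiredoxins that remove peroxide. In liver, Sod1 and Txn1 are expressed in most cells, while Cybb and Ncf4 are mainly genes of macrophages, neutrophils and other leukocytes.

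The promoters of the antioxidant and oxidase genes are shown because they differ in base composition and motif content. RefSeq gave the 250 bases before the start for 3 of the 4 genes on the GRCm38.p6 build: Sod1 at chr16:90220512-90220761 on the plus strand, Txn1 at chr4:57956412-57956661 on the minus strand and Cybb at chrX:9469325-9469574 on the minus strand. Ncf4, on chromosome 15, is named only. Capitals mark motifs found on either strand. The motif searched for as a GC box, to which Sp1 binds, was GGGCGG. For the TATA box, which positions the start of transcription in some promoters, it was TATAAA. For the CCAAT box, a site of the factor NF-Y, it was the pentamer that names it. The core of the antioxidant response element, through which Nrf2 acts on many antioxidant genes, was searched as TGACNNNGC. For PU.1, a factor of myeloid cells, 1 form of its core, GAGGAA, was searched, and shorter forms were not.

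Sod1: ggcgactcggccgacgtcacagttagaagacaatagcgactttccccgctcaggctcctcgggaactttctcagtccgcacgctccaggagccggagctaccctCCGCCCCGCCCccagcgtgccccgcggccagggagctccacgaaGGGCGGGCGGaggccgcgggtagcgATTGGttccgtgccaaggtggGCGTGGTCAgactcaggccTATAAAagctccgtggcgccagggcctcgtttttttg

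Txn1: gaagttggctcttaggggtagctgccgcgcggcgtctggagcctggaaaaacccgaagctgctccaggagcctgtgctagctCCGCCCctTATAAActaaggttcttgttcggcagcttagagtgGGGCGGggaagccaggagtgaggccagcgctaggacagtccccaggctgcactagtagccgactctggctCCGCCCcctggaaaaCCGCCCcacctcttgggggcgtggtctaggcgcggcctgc

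Cybb: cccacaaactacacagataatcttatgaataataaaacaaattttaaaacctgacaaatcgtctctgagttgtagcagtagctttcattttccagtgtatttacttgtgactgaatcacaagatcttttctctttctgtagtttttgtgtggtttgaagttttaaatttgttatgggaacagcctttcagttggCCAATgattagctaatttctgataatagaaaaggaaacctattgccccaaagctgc

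The Sod1 window held 4 GC boxes that overlap in pairs, a TATA box 37 to 32 bases before the start, a CCAAT box on the minus strand and an antioxidant response element core on the minus strand 56 to 48 bases before the start. The Txn1 window held 4 GC boxes and a TATA box 160 to 155 bases before the start. The Cybb window held a CCAAT box 56 to 52 bases before the start and no match to the other letters as searched. It does hold the shorter GGAA, which was not searched, so a PU.1 site is not excluded there. Bases G and C made up 66.4% of the Sod1, 64% of the Txn1 and 34% of the Cybb window, against a median of 52.4% over 32851 mouse promoters of this length. Among those promoters, 32.7% held a GC box, 12.4% a TATA box, 33.8% a CCAAT box, 10.2% an antioxidant response element core and 23.3% GAGGAA. A match of letters is a description of the window and says nothing of which factor binds there.

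RNA was counted with the nCounter Fibrosis Panel, which reads each RNA molecule through a fluorescent barcode without amplification. Levels are the authors' normalized counts, and differences are EVT0185 minus vehicle on the log2 scale. Total recovered counts ranged from 1462994 to 1838958 in EVT0185 and from 1470453 to 1850800 in vehicle livers. The median difference over the 612 tested genes was -0.10 as deposited. It was 0.0097 with each sample centred on its median and 0.018 with quantile normalization, so its sign depended on the scaling. Of the 612 genes, 200 (32.7%) passed limma's moderated test at an adjusted p under 0.05, 68 (11.1%) higher and 132 (21.6%) lower in EVT0185 livers. The defining hepatocyte markers were at high levels in every sample, with a summed normalized count of 326020 to 396530 in EVT0185 and 323330 to 463060 in vehicle livers.

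Sod1 and Txn1 gave high counts and varied little between animals. Sod1 had a normalized count of 22238, 23720 and 26798 in EVT0185 livers and 16960, 18971 and 22806 in vehicle livers (lowest, median and highest of 8 each). In 7 of 8 EVT0185 livers Sod1 lay above every vehicle liver, and the exception, EVT0185 animal 1, lay below only the highest vehicle animal, number 7. The mean was 24277 ± 1562 in EVT0185 and 19072 ± 1925 in vehicle livers (SD, n = 8 each), a log2 difference of 0.35 (SE 0.070), or 1.28-fold.

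Txn1 had a normalized count of 9504, 9862 and 10481 in EVT0185 livers and 6736, 8422 and 9448 in vehicle livers. The groups did not overlap, as for 42 of the 612 tested genes (6.86%) in either direction. Its mean was 9993 ± 410 in EVT0185 and 8259 ± 823 in vehicle livers (SD, n = 8 each), a log2 difference of 0.28 (SE 0.066), or 1.21-fold. The SD of Txn1 on the log2 scale was 0.059 among EVT0185 and 0.149 among vehicle animals, so the EVT0185 livers lay closer together.

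Cybb gave far fewer counts, which bears on its counting error and, since probes differ, not on its abundance beside Sod1. Its normalized count was 145, 195 and 248 in EVT0185 livers and 174, 261 and 387 in vehicle livers. All 8 EVT0185 livers lay below the vehicle median, but only 3 lay below every vehicle liver, and vehicle animals 2 and 4 were as low as EVT0185 livers. The mean was 188 ± 38.7 in EVT0185 and 263 ± 67.8 in vehicle livers (SD, n = 8 each), a log2 difference of -0.47 (SE 0.159), or 1.38-fold lower in EVT0185 livers.

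Ncf4 gave the fewest counts of the 4, with a normalized count of 29.9, 37.4 and 60.8 in EVT0185 livers and 38.1, 59.2 and 71.7 in vehicle livers. EVT0185 animals 2, 5, 7 and 8 lay together between 29.9 and 31.1 and below every vehicle liver, while animals 1, 3, 4 and 6 lay inside the vehicle range. The mean was 41.3 ± 12.7 in EVT0185 and 58.0 ± 11.3 in vehicle livers (SD, n = 8 each), a log2 difference of -0.52 (SE 0.179), or 1.44-fold lower in EVT0185 livers.

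In units of the spread between animals, the antioxidant differences were the wider ones. The difference was 2.95 times the pooled SD for Sod1, 2.48 times for Txn1, -1.38 times for Cybb and -1.40 times for Ncf4, although the log2 differences of the oxidase genes were larger in size. Counting error alone gave an SD of 0.0098 for Sod1, 0.015 for Txn1, 0.095 for Cybb and 0.204 for Ncf4 on the log2 scale, at raw counts of 29 to 72 for Ncf4. The spread of Ncf4 was 0.436 among EVT0185 and 0.302 among vehicle animals, so counting was a larger part of it than for the other 3 genes.

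The scaling between samples bore on the sizes. With each sample centred on its median, which moves the median gene to 0.0097, the differences were 0.46 for Sod1, 0.39 for Txn1, -0.36 for Cybb and -0.41 for Ncf4. Under quantile normalization they were 0.42, 0.060, -0.37 and -0.29, so the size for Txn1 was much smaller there and that for Ncf4 moved by over 1.5 times. All 4 kept their direction under every alternative run.

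**Figure D1:**
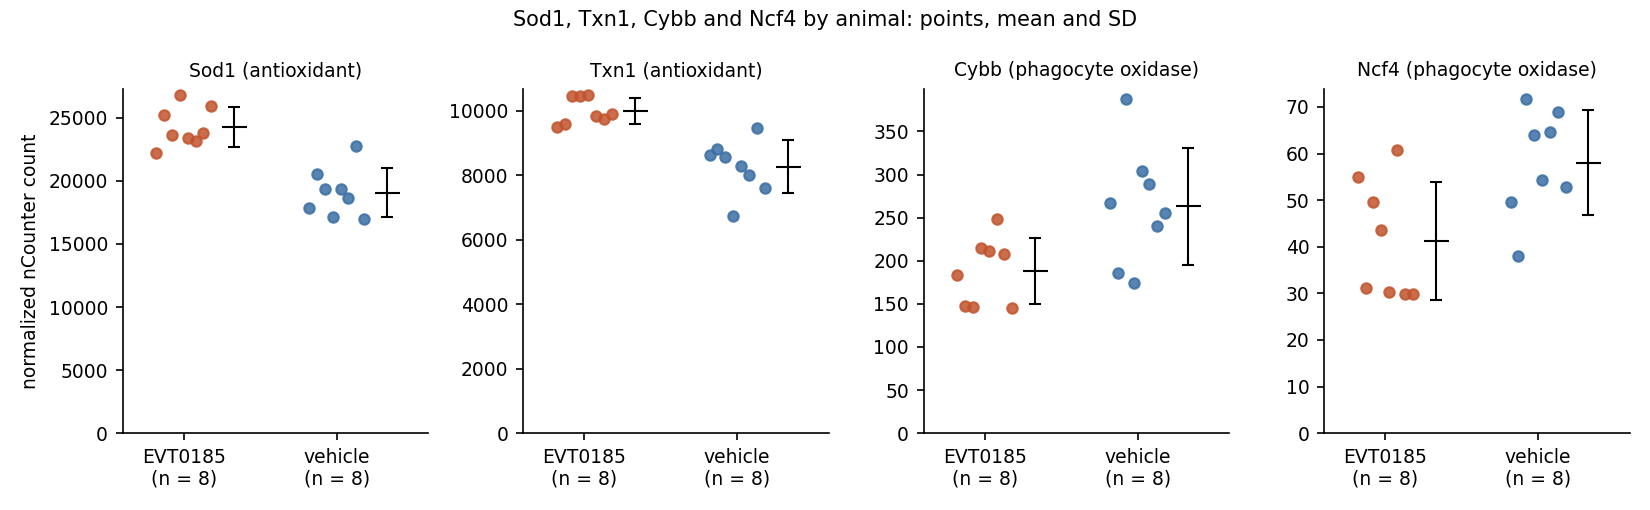
Normalized nCounter counts of Sod1, Txn1, Cybb and Ncf4 by animal, with EVT0185 left and vehicle right in each panel and the mean and SD of 8 animals beside the points. The axes start at 0 and differ between panels. Txn1 separates the groups fully and Sod1 in 7 of 8 EVT0185 animals, while Cybb and Ncf4 overlap.

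Within an animal, the mean log2 level of Sod1 and Txn1 was 13.83 to 14.03 in EVT0185 and 13.39 to 13.84 in vehicle livers, and that of Cybb and Ncf4 was 6.04 to 6.94 in EVT0185 and 6.39 to 7.38 in vehicle livers. Probes differ in efficiency, so the gap between the pairs has no absolute meaning and only its difference between groups is read. The antioxidant over oxidase log2 ratio had a lowest, median and highest value of 6.94, 7.56 and 7.93 in EVT0185 and of 6.27, 6.64 and 7.32 in vehicle livers. All 8 EVT0185 livers lay above the vehicle median and 6 above every vehicle liver. The highest vehicle value was that of animal 2, which had the lowest oxidase level of its group. Its Sod1 and Txn1 levels were below only those of vehicle animal 7. The ratio differed by 0.81 (SE 0.158), or 1.76-fold, a size that the choice of the genes fixes in direction.

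Each of the 4 single ratios had the same order. The log2 difference was 0.82 (SE 0.183) for Sod1 over Cybb, 0.88 (SE 0.206) for Sod1 over Ncf4, 0.75 (SE 0.164) for Txn1 over Cybb and 0.80 (SE 0.200) for Txn1 over Ncf4. Inside the pairs the ratios were nearly level, with a difference of 0.071 (SE 0.045) for Sod1 over Txn1 and 0.055 (SE 0.202) for Cybb over Ncf4. Both ratios inside the pairs had groups that overlap.

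**Figure D2:**
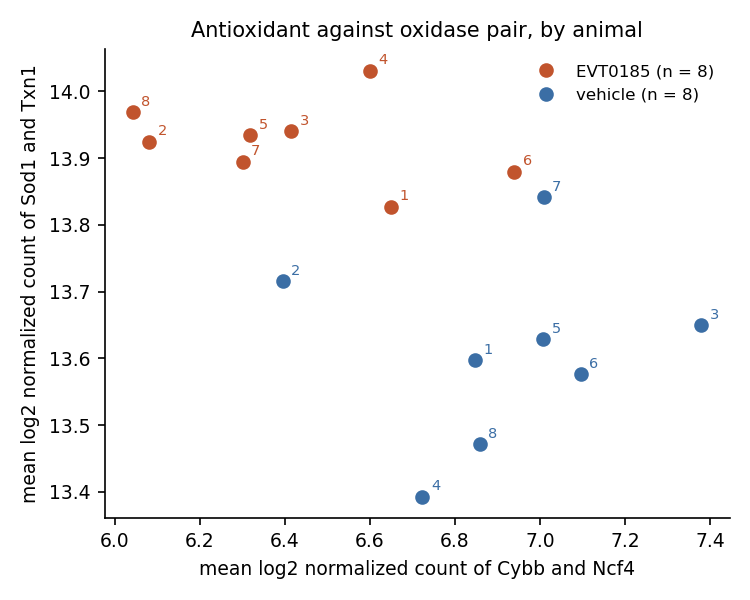
Mean log2 normalized count of Cybb and Ncf4 (horizontal) against that of Sod1 and Txn1 (vertical), 1 point per animal with its number, EVT0185 and vehicle in separate colours. EVT0185 livers sit higher and mostly further left.

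Whether animals with more antioxidant transcript had less oxidase transcript was asked within each group. No such relation passed the test. Across the 8 animals of each group, Pearson's r of an antioxidant with an oxidase gene ranged from -0.43 (Sod1 with Ncf4 in EVT0185 livers) to 0.33 (Txn1 with Cybb in vehicle livers), and was negative in 4 of 8 relations. The smallest exact permutation p among them was 0.275 (adjusted p = 0.785 over the 20 relations tested). Spearman's rho for these 8 relations ranged from -0.60 to 0.29, with a smallest exact permutation p of 0.132 and adjusted p of 0.756. At 8 animals a group, only strong relations pass such a test, and a p that misses the threshold does not show that the genes vary independently.

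Sod1 and Txn1 had r = 0.27 in EVT0185 livers (exact permutation p = 0.489, adjusted p = 0.923, rho = 0.31, p = 0.462) and r = 0.82 in vehicle livers (exact permutation p = 0.0141, adjusted p = 0.0938, rho = 0.83, p = 0.0154). Neither passed the adjusted threshold. Without the 2 animals with the most distant Sod1 levels, r was -0.026 in EVT0185 and 0.74 in vehicle livers. With median centring, which subtracts 1 value per sample from both genes and so can add a shared part to them, r was 0.88 in EVT0185 and 0.94 in vehicle livers and both passed. The difference in r between the groups was not tested.

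Cybb and Ncf4 had r = 0.32 in EVT0185 livers (exact permutation p = 0.429, rho = 0.43, p = 0.299) and r = 0.45 in vehicle livers (exact permutation p = 0.269, rho = 0.38, p = 0.360), neither past the adjusted threshold (adjusted p = 0.923 and 0.785). Without the 2 animals with the most distant Cybb levels, r was 0.42 in EVT0185 and 0.63 in vehicle livers.

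The other genes of the oxidase were nearer to level. The remaining measured genes of the phagocyte complex were Ncf1, which encodes the organizing subunit p47phox, and the small GTPases Rac1 and Rac2, which switch the complex on, besides Vav1, which loads Rac with GTP. Ncf1 had a normalized count of 47.2, 55.2 and 65.6 in EVT0185 and 45.7, 63.4 and 105 in vehicle livers (lowest, median and highest of 8), so all EVT0185 values lay inside the vehicle range. Its log2 difference was -0.25 (SE 0.144) and did not pass limma's test (adjusted p = 0.194). The log2 difference was -0.092 (SE 0.059) for Rac1, -0.041 (SE 0.139) for Rac2 and -0.26 (SE 0.184) for Vav1, with limma adjusted p of 0.251, 0.842 and 0.295. Under both other scalings the differences of Rac1 and Rac2 were positive and did not pass either.

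The partners of Sod1 and Txn1 likewise did not pass the test. Ccs, the copper chaperone that loads Sod1, differed by 0.054 (SE 0.081) and Cat, which encodes the hydrogen peroxide splitting catalase, by 0.069 (SE 0.076). Catalase had a normalized count of 33233 to 41772 in EVT0185 and 29625 to 42140 in vehicle livers, so all EVT0185 values lay inside the vehicle range. Txn2, the mitochondrial thioredoxin, differed by 0.099 (SE 0.080). The peroxiredoxin genes Prdx1, whose product thioredoxin reduces, and Prdx6 differed by -0.061 (SE 0.078) and -0.11 (SE 0.170) and had the opposite sign under both other scalings. Limma's adjusted p for these 5 genes ranged from 0.380 to 0.670. Gpx2 and Gpx3, which encode glutathione peroxidases, lay under the floor at mean normalized counts of 13.0 and 7.04. Other superoxide dismutases, thioredoxin reductases and the listed genes of glutathione synthesis and transfer were not among the measured genes under the names searched.

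Of 111 genes in the oxidase, antioxidant, glutathione, Nrf2 and oxidant source lists, 20 were measured under the names searched and 17 tested. Of those, 13 were other than the 4 genes described. Of the 13, limma called 0 higher (0 also at an unadjusted p under 0.05) and 1 lower (1 unadjusted), against 11.1% higher and 21.6% lower over the panel. Their median difference was -0.092, close to the -0.10 of all tested genes. The gene called was P4hb, which encodes protein disulfide isomerase, a catalyst of disulfide formation in the endoplasmic reticulum that is also the beta subunit of the collagen prolyl 4-hydroxylase. It stands in the list of oxidant sources for its partnership with an oxidase of that compartment. Ero1a, a listed gene for such an oxidase, is on the panel under its older name Ero1l. The names searched missed it, so it is not in these counts. Ero1l had a log2 difference of 0.061 (SE 0.078, limma adjusted p = 0.594) and did not pass. P4hb had a normalized count of 7659, 8186 and 8851 in EVT0185 and 12573, 14404 and 17478 in vehicle livers, groups that did not overlap. Its log2 difference was -0.84 (SE 0.071, limma adjusted p = 2.00e-07), which held under every alternative run.

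Hmox1, which encodes heme oxygenase 1 and is a target of the oxidant sensor Nrf2, was the only measured gene of its list and did not pass (log2 difference -0.24, SE 0.208, limma adjusted p = 0.420). Its normalized count was 200 to 302 in EVT0185 livers and 181 to 789 in vehicle livers, where animal 3 stood apart. Among the remaining oxidant sources, Cyp2e1, an ethanol and fatty acid oxidizing cytochrome P450, differed by -0.10 (SE 0.123, limma adjusted p = 0.563) and Nos3, the endothelial nitric oxide synthase, by 0.045 (SE 0.145, limma adjusted p = 0.829). Under quantile normalization Cyp2e1 took the opposite sign and was called higher, by 0.43. Without vehicle animal 6 the difference of Nos3 was -0.010.

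**Figure D3:**
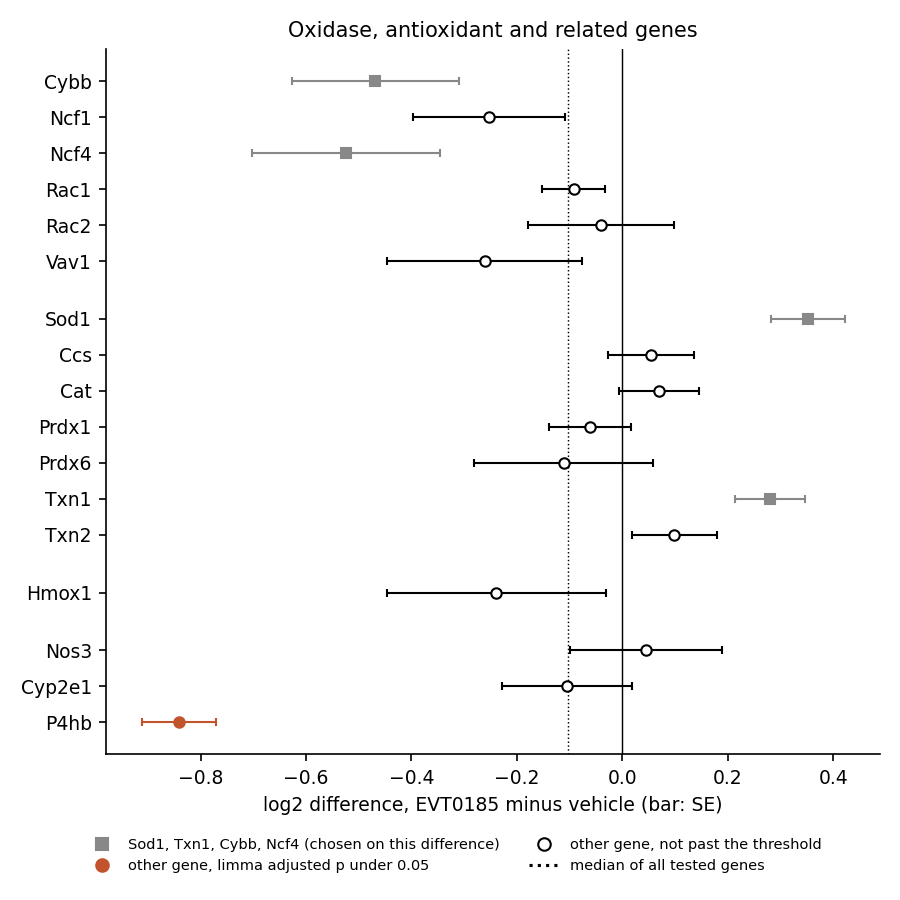
Log2 difference, EVT0185 minus vehicle, with limma's SE for 17 tested genes, grouped from top to bottom as oxidase, antioxidant, Nrf2 pathway and other oxidant sources. Squares are Sod1, Txn1, Cybb and Ncf4, which were selected on this difference, the filled circle is P4hb, open circles did not pass the test, and the dotted line is the median of all tested genes at -0.10.

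Markers of leukocytes moved beside Cybb and Ncf4. In whole liver, fewer cells of a type and less RNA per cell cannot be told apart. Ptprc, which encodes the common leukocyte antigen CD45, had a normalized count of 70.9, 93.9 and 126 in EVT0185 and 94.3, 124 and 188 in vehicle livers, with 4 of 8 EVT0185 livers below every vehicle liver. It was lower by limma (log2 difference -0.42, SE 0.140, adjusted p = 0.0281). The call was lost with median centring (adjusted p = 0.0655), with quantile normalization (0.0825) and without EVT0185 animal 2 or 8 or vehicle animal 3 (0.0542 to 0.0586).

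Of 8 macrophage and monocyte markers measured and tested, 0 were higher (0 unadjusted) and 2 lower (3 unadjusted) by limma, against 11.1% higher and 21.6% lower over the panel, with a median difference of -0.23 against -0.10 for all tested genes. With median centring and with quantile normalization 1 of the 8 was lower, against 77 and 89 of 612 genes over the panel. Ccr2, the receptor that draws monocytes into tissue, was lower (log2 difference -0.83, SE 0.217, adjusted p = 0.00713), and this held under every alternative run. Cd68, a lysosomal protein of macrophages, was lower (log2 difference -0.50, SE 0.171, adjusted p = 0.0317), a call lost under both other scalings (adjusted p = 0.0973 with median centring and 0.0690 with quantile normalization) and without EVT0185 animal 1, 2 or 8 or vehicle animal 5 or 6 (0.0520 to 0.0614). Csf1r, the receptor of the macrophage growth factor, differed by -0.14 (SE 0.149, adjusted p = 0.521), and Marco, a scavenger receptor of resident macrophages, by 0.51 (SE 0.562, adjusted p = 0.540). Fcer1g differed by -0.32 (SE 0.162, limma adjusted p = 0.146) and was not called. Its mean normalized count of 149 was above the 53.7 of Ccr2. The summed normalized count of the 8 markers was 1150 to 1538 in EVT0185 and 936 to 3117 in vehicle livers, none of them was at 0, and their part in the Cybb and Ncf4 levels was not tested.

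Neutrophils also express the oxidase, and 3 of 5 measured neutrophil markers were tested. By limma Csf3r, the receptor of granulocyte colony-stimulating factor, was lower (log2 difference -0.54, SE 0.189, adjusted p = 0.0371) and the chemokine receptor gene Cxcr1 higher (0.49, SE 0.150, adjusted p = 0.0192), while Fpr1 differed by 0.13 (SE 0.246, adjusted p = 0.725). The Csf3r call rests on normalized counts of 9.66 to 26.9 in EVT0185 and 20.4 to 34.8 in vehicle livers and was lost under both other scalings and without EVT0185 animal 2, 4, 5 or 7 or vehicle animal 3, 4, 5 or 6. The summed count of the 5 markers was 98.0 to 139 in EVT0185 and 84.4 to 166 in vehicle livers, and its part in the oxidase levels was not tested. Irf8, a transcription factor of dendritic cells and monocytes, was lower (log2 difference -0.44, SE 0.131, limma adjusted p = 0.0155, lost with quantile normalization at 0.102).

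Set against Ptprc and Cd68 within each animal, the oxidase genes differed less between groups. Both markers were themselves called lower, so a smaller difference follows from their choice. Ratios to Csf1r (log2 difference -0.14) and Marco (0.51), which were not called, were not taken. The ratios to Ptprc and Cd68 were chosen after their values were seen and are descriptions. The log2 difference was -0.047 (SE 0.117) for Cybb over Ptprc and -0.10 (SE 0.135) for Ncf4 over Ptprc. It was 0.034 (SE 0.129) for Cybb over Cd68 and -0.021 (SE 0.193) for Ncf4 over Cd68. All 4 ratios overlapped between the groups almost throughout.

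Over the mean log2 level of all 8 macrophage and monocyte markers, the difference was -0.28 (SE 0.171) for Cybb and -0.33 (SE 0.160) for Ncf4. Marco and Cd163, another scavenger receptor, varied widely between animals. They were also the markers of this list with a positive difference (0.51 and 0.29), while the others had negative ones. Without them, an alternative that was not planned, the ratio differed by -0.078 (SE 0.103) for Cybb and -0.13 (SE 0.158) for Ncf4. A smaller difference follows from leaving out the markers that were higher. Marco alone ranged from 31.1 to 327 in EVT0185 and from 39.1 to 771 in vehicle livers. The choice of markers thus moved the difference by over 1.5 times.

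**Figure D4:**
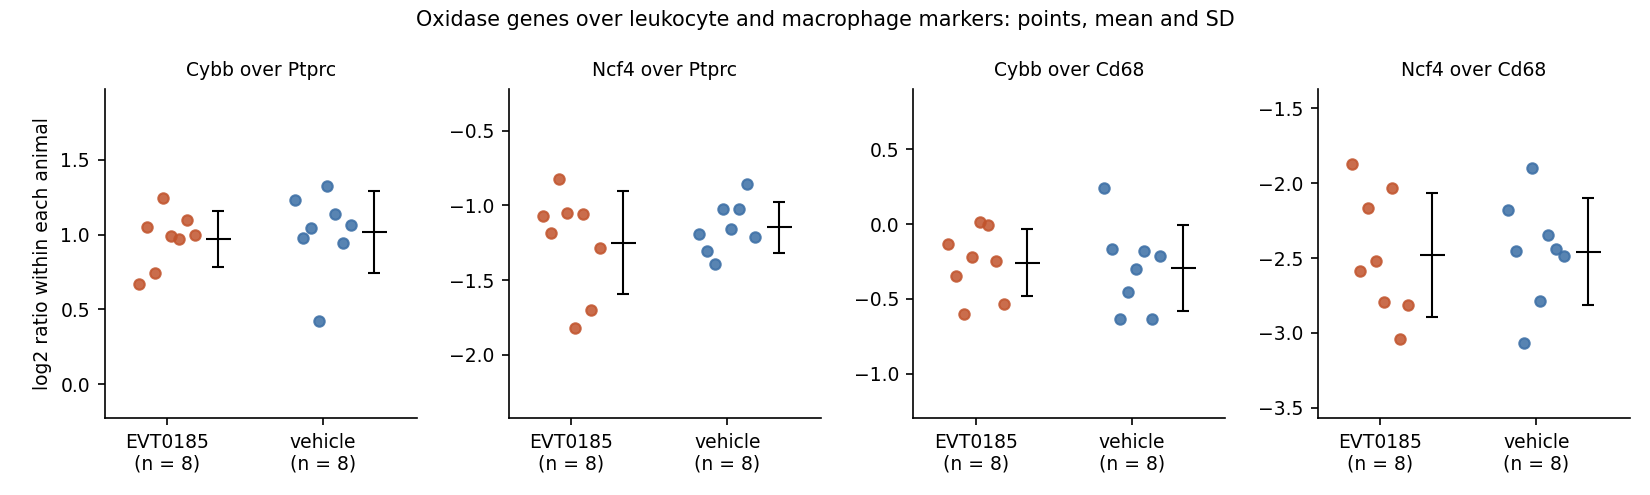
Log2 ratio of Cybb and of Ncf4 over Ptprc and over Cd68 within each animal, EVT0185 left and vehicle right, with the mean and SD of 8 animals. Each panel spans the same range of log2 units. The groups overlap in all 4 panels.

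Across animals, Ncf4 followed the macrophage and monocyte mean in vehicle livers, with rho = 0.98 (exact permutation p = 0.000397, adjusted p = 0.00794) and r = 0.88 (exact permutation p = 0.00588, adjusted p = 0.0786). Without the 2 animals with the most distant marker means r was 0.94. In EVT0185 livers the same relation had r = 0.45 (exact permutation p = 0.273, adjusted p = 0.785) and rho = 0.43 (p = 0.299). Of the 20 relations, this one passed the adjusted threshold by rho and 0 passed by r, with 2 by rho and 3 by r at an unadjusted p under 0.05. The difference between the groups was not tested.

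Cybb with that mean had r = 0.16 in EVT0185 livers (exact permutation p = 0.771, adjusted p = 0.935, rho = 0.48, p = 0.243) and r = 0.67 in vehicle livers (exact permutation p = 0.0686, adjusted p = 0.343, rho = 0.31, p = 0.462). The EVT0185 value moved both ways with single animals. Without animal 5, whose Marco count was the lowest, r was 0.83, and without animal 6 it was -0.16. With quantile normalization it was -0.20. The vehicle value rested on animals 2 and 3, without which r was -0.13.

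Hepatocytes are the main cells of the liver. Of 11 hepatocyte markers tested, 7 were lower by limma (8 unadjusted) and 0 higher (0 unadjusted), against 21.6% lower and 11.1% higher over the panel, with a median difference of -0.38 against -0.10 for all tested genes. With median centring 2 were lower, against 77 of 612 genes over the panel, and with quantile normalization 5, against 89 of 612. None of these markers was higher under either. Over their mean log2 level the difference was 0.81 (SE 0.087) for Sod1 and 0.74 (SE 0.108) for Txn1, a direction to which the choice of Sod1 and Txn1 for their higher levels contributes. The hepatocyte mean itself differed by -0.46, which enters both ratios with the opposite sign. A gene level between the groups would thus also have a positive ratio. The lowest markers by difference were Pck1 (-1.90) and Fbp1 (-0.85), which encode enzymes of glucose synthesis. Without them, an alternative chosen after the values were seen, the difference was 0.60 (SE 0.081) for Sod1 and 0.53 (SE 0.0997) for Txn1. With and without them, all 8 EVT0185 livers lay above every vehicle liver in both ratios. How many other genes of the panel would separate over these means was not counted. The part of the hepatocyte markers in the Sod1 and Txn1 levels was not tested.

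Within the groups, the hepatocyte mean and Sod1 had r = 0.86 in EVT0185 livers (exact permutation p = 0.00786, adjusted p = 0.0786, rho = 0.57, p = 0.151) and r = 0.067 in vehicle livers (exact permutation p = 0.877, adjusted p = 0.935, rho = 0.17, p = 0.703). Without the 2 EVT0185 animals with the most distant hepatocyte mean r was 0.47, and with quantile normalization -0.40. For Txn1 the values were r = 0.17 in EVT0185 livers (exact permutation p = 0.652, adjusted p = 0.935, rho = 0.12, p = 0.793) and r = -0.23 in vehicle livers (exact permutation p = 0.582, adjusted p = 0.935, rho = -0.33, p = 0.428).

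The genes most like each of the 4 were ranked by Pearson's r over the 16 animals after each group was centred on its own mean, among 611 other genes. These animals share a platform and 1 scaling factor each, and r is a description. Of the 4, Cybb had the closest companion: Tlr4, the receptor for bacterial lipopolysaccharide, with r = 0.94 (0.96 among EVT0185 and 0.97 among vehicle animals). Its next companions were Cd84, a receptor of leukocytes (0.79), the adhesion molecule gene Vcam1 (0.78), and the kinase genes Syk (0.77) and Jak1 (0.77). For Ncf4 they were the complement receptor gene C3ar1 (0.77), Ptprc (0.70), the lysosomal protease gene Lgmn (0.69), the cytokine gene Il33 (0.69) and Ncf1 (0.69).

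For Sod1 the companions were Apoa2, an apolipoprotein gene that is also among the hepatocyte markers (0.86), the mitochondrial complex I genes Ndufs3 (0.84) and Ndufb5 (0.83), the aldehyde dehydrogenase gene Aldh9a1 (0.82) and the proteasome gene Psmc3 (0.81). Txn1 was followed by the proton pump gene Atp6v1f (0.83), Prdx1 (0.82), the chaperone partner gene Sugt1 (0.82), the cytochrome P450 gene Cyp2j6 (0.81) and Hsbp1, which binds heat shock factor (0.76). The partner in each pair came lower in these rankings: Txn1 was at rank 21 for Sod1 (r = 0.70), Sod1 at rank 14 for Txn1, Ncf4 at rank 186 for Cybb and Cybb at rank 76 for Ncf4. With median centring, 4 of the 5 companions were shared for Sod1 and Ncf4, 3 for Cybb and 2 for Txn1.

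Centring each group on its mean removes the difference between groups, so the companions' own differences were not used to rank them. Genes that vary together also share sampling error in their group means, and Sod1, Txn1, Cybb and Ncf4 were selected on their difference. The counts of companions called are thus tied to that selection and are descriptions. Of the 10 companions of Sod1 and Txn1, 4 were higher by limma (4 with median centring, 5 with quantile normalization) and 0 lower, against 11.1% higher over the panel. The 4 were Aldh9a1 (log2 difference 0.54, SE 0.073, adjusted p = 2.50e-05), Ndufb5 (0.41, SE 0.072, adjusted p = 0.000300), Ndufs3 (0.26, SE 0.074, adjusted p = 0.0125) and Sugt1 (0.18, SE 0.059, adjusted p = 0.0272). Prdx1, which followed Txn1 among animals, differed between groups by -0.061 and did not pass.

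Of the 10 companions of Cybb and Ncf4, 5 were lower by limma and 0 higher, against 21.6% lower over the panel. With median centring 1 was lower, against 77 of 612 genes over the panel, and with quantile normalization 2, against 89 of 612. C3ar1 was lower under all 3 scalings (log2 difference -0.54, SE 0.136, adjusted p = 0.00562). Tlr4 differed by -0.40 (SE 0.152) and lay at an adjusted p of 0.0519 by limma.

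**Figure D5:**
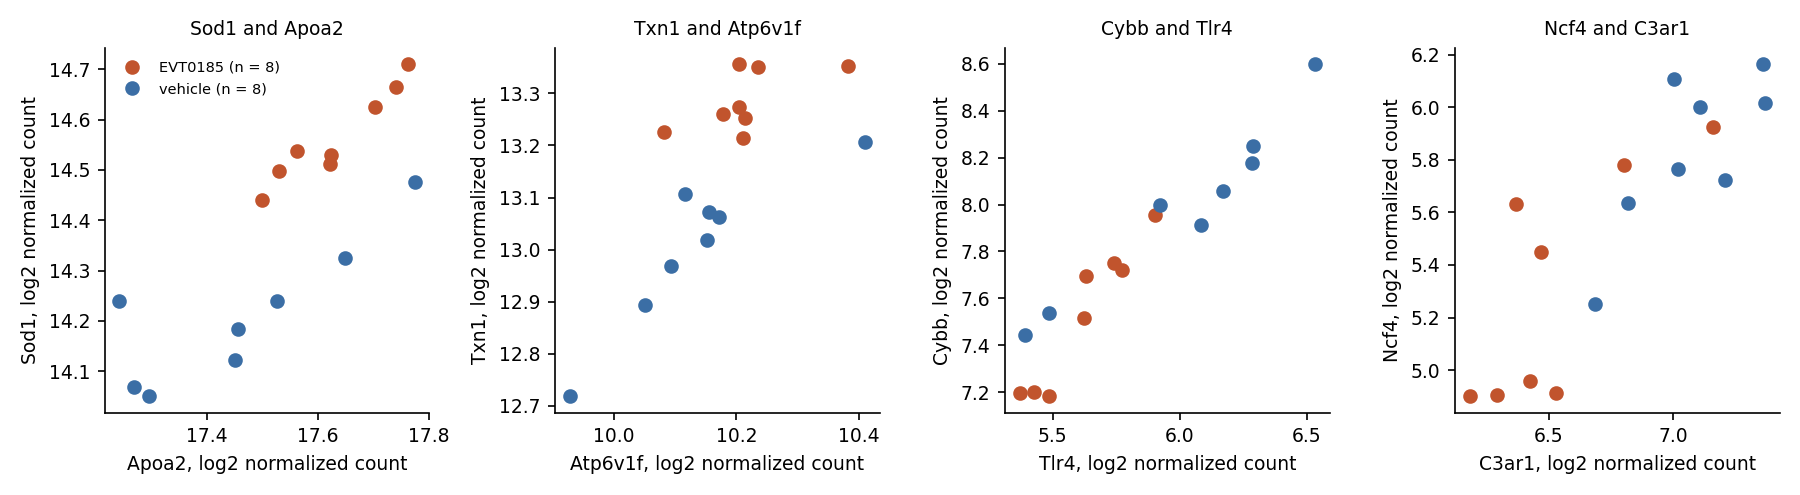
Log2 normalized count of Sod1, Txn1, Cybb and Ncf4 (vertical) against that of the gene most like each (horizontal): Apoa2, Atp6v1f, Tlr4 and C3ar1, 1 point per animal, EVT0185 and vehicle in separate colours. Cybb and Tlr4 lie along 1 line shared by both groups, while for Sod1 and for Txn1 the EVT0185 points sit above the vehicle points at like levels of the companion.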

How the data were processed

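Liver RNA of 8 EVT0185-treated and 8 vehicle-treated mice was measured on an nCounter panel of 760 genes. The authors deposited log2 values normalized in nSolver 4.0 by a global geometric mean, per the submitters' design text. Undoing the log2 gave whole counts, to within 0.1 count and up to 1 scaling factor per sample, for 100% of the values, so no pseudocount had been added. Counts of different animals of a group differed beyond sampling noise, with a chi-square per degree of freedom of at least 13.0. Gene names are those of the deposited table. The labels give no batch.

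Only genes averaging at least 20 normalized counts over all samples were tested, with limma 3.58.1 in R 4.3.3 (lmFit and eBayes with a variance trend, two-sided, Benjamini-Hochberg adjustment over 612 genes, threshold 0.05). SE is limma's moderated one for genes and the unmoderated one for ratios. Relations within a group were tested over all 40320 pairings of 8 animals, two-sided, for Pearson's r and Spearman's rho, with adjustment over 20 relations, in Python 3.11.15 with scipy 1.17.1. Both were tested on simulated data. Replicate numbers were not treated as pairs. Correlations of same-numbered animals ran from -0.144 to 0.458, with 5 of 8 over 0.1, and the same-numbered vehicle animal was the closest match in 1 of 8. Alternatives were median centring, quantile normalization, a pseudocount of 10, no floor, a floor of 100, the replicate number as a block and leaving out each animal. Promoter sequences are RefSeq's.

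The 4 genes and all lists were chosen with earlier results of these data known. Genes named are the 4, the measured oxidase, superoxide dismutase and thioredoxin system genes, any other redox gene past the test, the 5 most alike to each of the 4, and up to 4 markers a list. Hmox1, Cyp2e1, Nos3, Ero1l, Gpx2, Gpx3, Ccr2, Cd163, Cd14, Cd86, Irf8, Pck1 and Fbp1 were added after their values were seen.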

Additional observations from a re-analysis of the deposited data

Results flagged for a closer look

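Of 66 sets of 8 values checked for a sample far from the others, 3 held one. Chance gives about 1 in 20 such sets. In vehicle animal 3, Hmox1 had a log2 value of 9.624, against 7.50 to 8.217 in the other vehicle animals, or a normalized count of 789 against 181 to 297. In EVT0185 animal 5, Marco had a log2 value of 4.959, against 7.279 to 8.353 in the other EVT0185 animals, and the macrophage and monocyte mean, which includes Marco, was 6.298 against 6.732 to 7.037. Without vehicle animal 3 the log2 difference of Hmox1 was -0.035.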

How the results depend on the processing

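The 4 genes kept their direction under all alternatives run, with log2 differences of 0.33 to 0.46 for Sod1, 0.060 to 0.39 for Txn1, -0.55 to -0.36 for Cybb and -0.61 to -0.29 for Ncf4. The ratio of the pairs ranged from 0.57 (quantile normalization) to 0.90. Leaving out 1 animal gave 60 to 71 tested genes higher and 103 to 165 lower. With the replicate number as a block, which the animals' values did not bear out as a pairing, 61 genes were higher and 129 lower, and among the markers Cxcr1 was not called (adjusted p = 0.0597) and Cd86 was called lower (adjusted p = 0.0363) by limma. Quantile normalization called 106 genes higher, 1 of the redox genes counted (Cyp2e1) among them, and median centring 77 lower. The cause was not tested for these or the following changes.

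Signs turned for small differences of genes that did not pass. With median centring and with quantile normalization, Cyp2e1 was at 0.0081 and 0.43, Prdx1 at 0.052 and 0.038, Prdx6 at 0.0016 and 0.091, Rac1 at 0.020 and 0.034 and Rac2 at 0.072 and 0.059, and with quantile normalization Cd14 was at 0.059. Leaving out 1 animal, Nos3 ranged from -0.010 to 0.138 and Rac2 from -0.126 to 0.0089.

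Relations past the threshold numbered 4 with median centring, 1 by Spearman's rho and 0 to 1 when 1 animal was left out (1 without vehicle animal 3). In EVT0185 livers, r turned to -0.20 for the macrophage mean with Cybb, -0.40 for the hepatocyte mean with Sod1 and -0.57 with Txn1 under quantile normalization. Without the 2 farthest animals it turned there to -0.026 for Sod1 with Txn1, -0.23 for the macrophage mean with Ncf4 and -0.28 for the hepatocyte mean with Txn1. In vehicle livers it turned to -0.13 for the macrophage mean with Cybb without those animals, to -0.47 (quantile normalization) and -0.28 (without those animals) for the hepatocyte mean with Sod1, and to 0.31 for the hepatocyte mean with Txn1 with median centring.

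Leaving out 1 EVT0185 animal, r ranged from -0.030 to 0.45 for Sod1 with Txn1, -0.014 to 0.53 for Cybb with Ncf4, -0.16 to 0.83 for the macrophage mean with Cybb and -0.14 to 0.32 for the hepatocyte mean with Txn1. Leaving out 1 vehicle animal, the hepatocyte mean had r of -0.11 to 0.25 with Sod1 and -0.53 to 0.042 with Txn1. With median centring, 2 of the 5 genes most like Txn1 and 3 of those most like Cybb were shared.

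Raw counts of Ncf4 were 29 to 72, which limits the precision of its values. With 8 animals a group and 1 dose, panel genes alone and whole liver, protein and oxidant levels were not analysed here.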
